A study of Mus musculus with 1 sample.

Results

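Immunoglobulin G (IgG) receptor genes were examined in mouse ventral midbrain (VM)-derived mixed glia, in 1 RNA-seq library labelled control. The heading of its value column begins with mAst, which the labels do not explain. The 6 genes, of 23282 rows in the table, were chosen by symbol: the activating receptors Fcgr1, Fcgr3 and Fcgr4, the inhibitory receptor Fcgr2b, the common gamma chain Fcer1g and the neonatal Fc receptor Fcgrt. The labels give ICR(CD-1) outbred mice, brain and an age of postnatal day 5, and the cells were isolated and expanded in medium with serum. The study names DMSO as the vehicle of its control cultures and used them as the baseline for an inhibitor of the kinase SGK1. Glia given the inhibitor were not analysed here. As the control is a single library, the spread between cultures is unknown, and the comparisons are between genes, without a test.

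Fc gamma receptors bind the constant part of IgG and let phagocytes take up antibody-coated targets. In mouse, Fcgr1 (CD64), Fcgr3 (CD16) and Fcgr4 form activating receptors that depend on Fcer1g, a small chain carrying an immunoreceptor tyrosine-based activation motif (ITAM). Src family kinases phosphorylate the ITAM tyrosines, the kinase Syk docks on them, and the signal runs on to phospholipase C gamma, Vav proteins and the actin cytoskeleton. Fcgr2b (CD32) carries an inhibitory motif (ITIM) in its own tail, which recruits the lipid phosphatase SHIP1, encoded by Inpp5d. In the brain these receptors are known from microglia. The study stained microglia in brain sections with an antibody against CD16/32, which recognises the products of both Fcgr3 and Fcgr2b, as a marker of the pro-inflammatory M1 state. Fcgrt works differently: with beta-2 microglobulin it forms FcRn, which protects IgG and albumin from breakdown by recycling them.

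The coding sequences show where the activating and the inhibitory arms differ. The parts of the GENCODE M21 transcripts that encode the ITAM of Fcer1g and the ITIM of Fcgr2b are printed here 5′ to 3′, with the tyrosine codons in capitals.
Fcer1g ITAM: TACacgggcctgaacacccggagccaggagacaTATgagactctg
Fcgr2b ITIM: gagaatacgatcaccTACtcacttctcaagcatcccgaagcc
The Fcer1g stretch lies at chr1:171229889-171230072 (GRCm38, minus strand), in coding exons 4 and 5 of 5. The Fcgr2b stretch lies at chr1:170961056-170961097 (minus strand), in coding exon 8 of 8. The 2 tyrosine codons of the Fcer1g stretch are 11 codons apart. Fcgr2b has a single tyrosine codon of this kind, which is defined here as one with a leucine or isoleucine codon 3 codons further on. The same pattern matched nowhere in the coding sequences of Fcgr3 and Fcgr4, 1 time each in Fcgr1 and Fcgrt, and 1 further time in Fcer1g. Such a match describes letters only.

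Part of Fcgr3 and Fcgr2b is nearly the same sequence. Over 509 aligned coding bases, 63.5% of the Fcgr3 and 49.9% of the Fcgr2b coding sequence, they were 96.5% identical, and the longest run without a difference was 129 bases. That run is shown with 36 bases on each side, with the 5 differing bases in capitals.
Fcgr3: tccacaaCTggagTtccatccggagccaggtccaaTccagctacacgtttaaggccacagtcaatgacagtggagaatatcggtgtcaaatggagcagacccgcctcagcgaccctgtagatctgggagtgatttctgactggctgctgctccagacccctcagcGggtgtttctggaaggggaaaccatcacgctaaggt
Fcgr2b: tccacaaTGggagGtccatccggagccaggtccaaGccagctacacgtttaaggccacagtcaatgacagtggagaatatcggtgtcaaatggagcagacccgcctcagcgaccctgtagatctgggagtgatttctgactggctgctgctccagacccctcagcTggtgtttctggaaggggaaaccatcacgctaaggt
The Fcgr3 stretch spans chr1:171054131-171057828 and the Fcgr2b stretch chr1:170966638-170968117 (GRCm38, minus strand), in both genes across coding exons 3 and 4. The other receptors were more distant. Fcgr4 and Fcgr3 were 73.2% identical over 642 aligned coding bases, and Fcgr1 aligned to Fcgr3 over 242 bases at 72.3%.

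Because reads from such a stretch fit both genes, windows of the RefSeq-paired transcripts were compared with all annotated transcripts. Of the 50-base windows of Fcgr3, 12.8% also occurred in Fcgr2b, and 3.53% of the 100-base windows did. Of the 50-base windows of Fcgr2b, 8.48% occurred in another gene, and 166 of these windows were those shared with Fcgr3. The remaining shared windows of its longer transcript all began after the coding sequence, in the 3′ untranslated region. Fcgr1, Fcgr4, Fcer1g and Fcgrt had 0 shared windows at 50, 75 and 100 bases. How multi-mapped reads were counted is not given in the sources used here, so part of the Fcgr3 and Fcgr2b values can belong to the other gene. No member shared exon bases with a gene that had a row in the table. Fcgr2b overlapped the antisense gene Gm38204 by 155 exon bases.

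All 6 genes were detected, that is, had a value of 10 or more, as did 67.2% of all rows. The values are normalised read counts as the authors described them. A total of 4 of the 6 genes were among the highest 10% of rows, a group that by its definition holds 10.0% of all rows. The 6 values summed to 33766, or 0.122% of the sum of the table, 27569507. The median detected gene stood at 469.

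Fcer1g had the highest value of the 6, 11552, which placed it at rank 313 of all rows. Among the activating receptors, Fcgr3, the low-affinity receptor for IgG complexes, stood at 9588, above 97.4%. The high-affinity receptor Fcgr1 stood at 904 (above 65.4%) and Fcgr4 at 506 (above 51.6%). One activating receptor was therefore far above the other two. The inhibitory Fcgr2b stood at 8855, above 97.1% of detected rows and close to Fcgr3. Fcgrt stood at 2361, above 85.7%.

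Where reads scale with transcript length, levels of different genes are comparable only per length. Whether these values scale so is not known, since the normalisation is not given in the sources used here. Divided by the kilobases (kb) of all annotated exons, Fcer1g had 13217 per kb, Fcgr3 5523, Fcgr2b 1529, Fcgrt 1123, Fcgr4 403 and Fcgr1 349. The median detected gene had 102 per kb, and on this scale Fcgr4 stood above 79.1% and Fcgr1 above 76.6% of detected rows. The order Fcer1g, Fcgr3, Fcgr2b, Fcgrt held on each of the 5 length scales tried and on the undivided values. The last 2 places did not hold. Fcgr4 was above Fcgr1 per kb of exons, but Fcgr1 was above Fcgr4 by 1.10-fold per kb of coding sequence and by 1.79-fold on the undivided values, so their order was not settled.

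**Figure D1:**
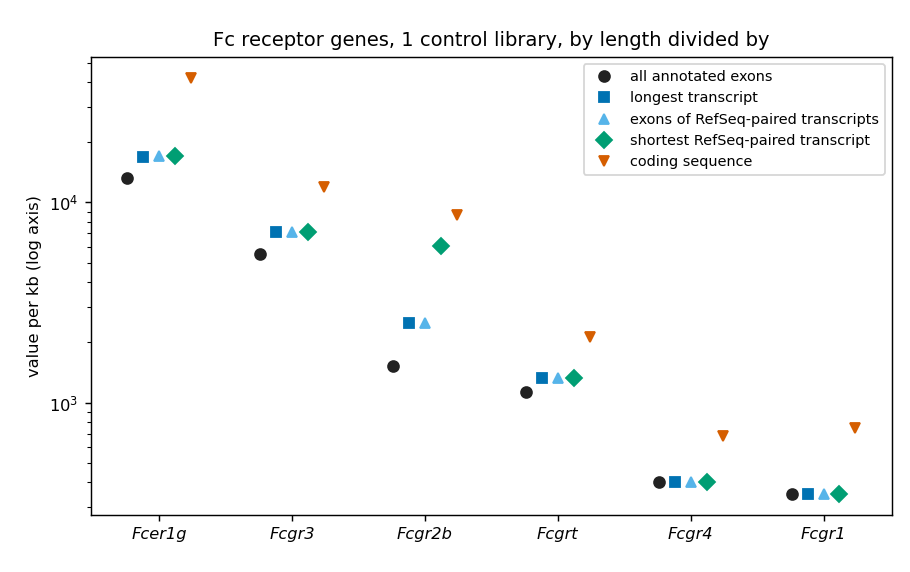
Value per kb (log axis) of each of the 6 genes in the control library, with 1 point for each length the value was divided by. Fcer1g and Fcgr3 lie above the other genes on all 5 lengths, and Fcgr2b moves most, from 1529 to 8681 per kb.

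The activating receptors exceeded the inhibitory receptor, and Fcgr3 made up that excess. Per kb of all annotated exons, Fcgr1, Fcgr3 and Fcgr4 summed to 6275 and Fcgr2b had 1529, a 4.10-fold difference (2.04 on the log2 scale with a pseudocount of 1). The size rested on the length given to Fcgr2b, whose annotated exons span 5790 bases, against 1736 for Fcgr3. Its annotation includes transcripts with retained introns and a pair of RefSeq-paired messages of 3544 and 1462 bases, of which the longer has a 3′ untranslated region of 2397 bases and the shorter one of 456 bases. With the shortest RefSeq-paired transcript of each gene the ratio was 1.30-fold, per kb of coding sequence it was 1.54-fold, and without division by length it was 1.24-fold. The activating sum was thus higher on every scale, by 1.24-fold to 4.10-fold, and a gene-level value cannot say which Fcgr2b transcript was present.

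Fcgr3 alone exceeded Fcgr2b by 3.61-fold per kb of annotated exons, by 1.18-fold with the shortest RefSeq-paired transcripts and by 1.08-fold undivided. How far shared windows moved these ratios was not tested. Fcgr1 and Fcgr4 together reached 0.492 of Fcgr2b per kb of annotated exons and 0.124 with the shortest RefSeq-paired transcripts. Without Fcgr3 the comparison therefore turned, with the inhibitory receptor above the remaining activating receptors by 2.03-fold to 8.05-fold. Fcgr3 and Fcgr2b, the pair behind CD16/32, held 90.4% to 94.6% of the summed level of the 4 receptors, whichever length was used. Fcgr3 by itself held 48.3% to 70.8%.

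**Figure D2:**
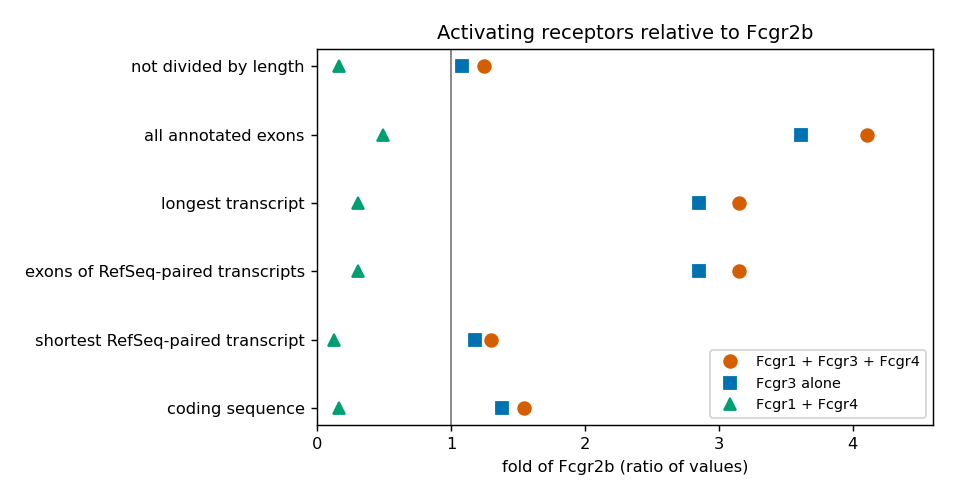
Ratio of the activating receptors to Fcgr2b in the control library (linear axis from 0; the grey line marks equal values), for undivided values and 5 lengths. The sum of 3 activating receptors lies between 1.24 and 4.10, Fcgr3 alone between 1.08 and 3.61, and Fcgr1 with Fcgr4 below 0.5 throughout.

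Fcer1g exceeded the 3 activating receptors that need it. Its level was 2.11-fold their sum per kb of annotated exons and 3.13-fold per kb of coding sequence, but 1.05-fold undivided, since it is a short gene. Fcer1g also serves other receptors, and of 7 of these (one of them the IgE receptor chain Fcer1a), 3 were detected. All 3 were C-type lectins of myeloid cells: Clec4d at 1797 per kb (value 2873), Clec4n at 1006 (value 1428) and Clec4e at 301 (value 1495). Clec4d and Clec4n are related in sequence, and reads could be split between them. Oscar was at 9 and Ncr1 at 4, both under the detection minimum. Gp6, the platelet collagen receptor, and Fcer1a were listed at 0.

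Among other ITAM adaptors, Tyrobp (DAP12), the partner of TREM2 and other microglial receptors, came close to Fcer1g with 12177 per kb (value 8122), 0.921 of its level. The remaining 6 were lymphocyte chains. Cd247, the zeta chain, had a value of 89, and its exons overlap Pou2f1 on the opposite strand, so reads of both could be mixed. Cd3d was at 202, Cd79a at 9, Cd3e at 2, Cd3g at 2, and Cd79b was listed at 0. The median of the 7 adaptors was 6.18 per kb.

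Genes of the activating cascade were broadly present. Of 21, 20 were detected and 9 were in the highest 10% of rows. Their median was 379 per kb, against 102 for detected genes and 31.0 for all rows. Vav1, an exchange factor of blood cells, was highest at 2242 per kb (value 8268), and its broadly expressed relatives were lower by 24.7-fold (Vav2) and 26.9-fold (Vav3) per kb, or 13.2-fold and 16.5-fold on undivided values. Lyn, a Src family kinase, followed at 1534 (value 6250), then Plcg2 at 1456 (value 6260) and the protein kinase C gene Prkcd at 889 (value 4929). Plcg2, the isoform typical of myeloid and B cells, was 15.9-fold above Plcg1 per kb and 8.69-fold undivided. Lat, an adaptor of T cells and mast cells, was lowest with a value of 7. Syk, named here for its place in the pathway after its value was seen, had 497 per kb (value 4652). Exons of several genes in these lists, among them Lyn, Plcg1, Ptpn6, Inppl1, Elmo1, Milr1, Rab5a, Cebpa, Cebpb, Runx1, Csf1r, Aldh1l1, Slc1a2, Pax5, Cd3e and Mpo, overlap genes on the opposite strand, and whether counting used the strand is not given in the sources used here.

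The inhibitory cascade was detected in full, with 10 of 10 genes at 10 or more and 4 in the highest 10%. The tyrosine phosphatase SHP-1, encoded by Ptpn6, was highest at 4359 per kb (value 12215). Inpp5d, the phosphatase that acts for Fcgr2b, came next with 1224 (value 9306), followed by its relative Inppl1 at 497 (value 3180) and by Ptpn11 (SHP-2) at 374 (value 2801). The ubiquitin ligase Cblb was lowest at 24.6 (value 258). The list median was 311 per kb. The activating median lay 0.29 higher on the log2(value per kb + 1) scale, which is 1.22-fold, and on the other settings tried 0.21 to 1.02. The gap was small beside the spread inside each list, which ran from 2.53 to 2242 per kb in the activating and from 24.6 to 4359 per kb in the inhibitory list.

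The phagocytic machinery downstream was high as a list. All 16 genes were detected, 15 of them in the highest 10%, and the median was 2100 per kb. Subunits of the actin-branching Arp2/3 complex led, with Arpc2 at 13090 and Arpc3 at 5596. The complement receptor 3 chains came next, with Itgb2 at 5379 and Itgam at 4720 per kb, although Itgam shares exon bases with a gene on the same strand. The engulfment adaptor Elmo1 was lowest at 244. Arp2/3 subunits are used by cells of all types and do not mark phagocytes. The list was not divided into general and myeloid genes, so its level is not a measure of phagocytes.

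**Figure D3:**
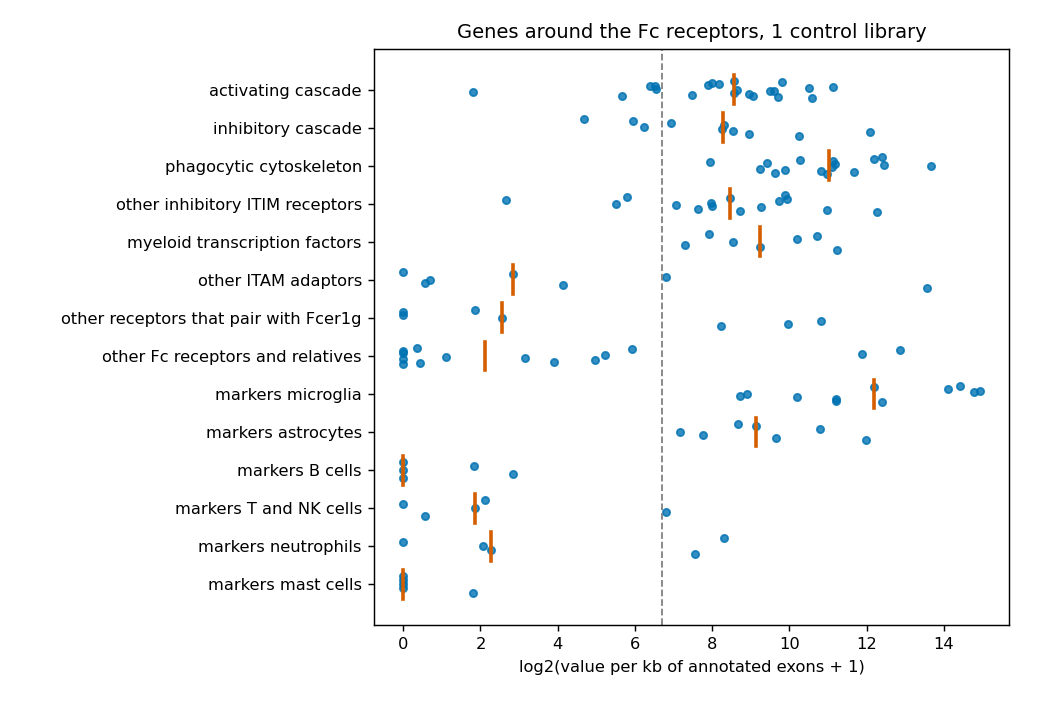
Each point is 1 gene, placed by log2(value per kb of annotated exons + 1), and the vertical bars are list medians. The dashed line is the median of detected genes (102 per kb). The activating and inhibitory cascades, with medians of 379 and 311 per kb, overlap along their length, and the B cell and mast cell markers lie near 0.

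Fcgr2b is 1 of many receptors with an ITIM, and the other 15 in the list were all detected, with a median of 351 per kb. Sirpa, the receptor for the "do not eat me" signal CD47, stood at 4921 per kb (value 24165), 3.22-fold above Fcgr2b. Lilrb4a stood at 2010 (value 10506), Cd72 at 983 (value 3364) and Milr1 at 939 (value 2322). Lilrb4a belongs to a family of close copies and shares exon bases with a gene on the same strand, and Cd72 overlaps Tesk1 on the opposite strand, so both values are uncertain. Pecam1 was lowest at 5.30 (value 33). Fcgr2b lay below Sirpa and Lilrb4a both per kb of annotated exons and on undivided values. It had 8681 per kb of coding sequence, a length on which Sirpa and Lilrb4a were not compared here.

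For FcRn, Fcgrt was low beside its partner. Fcgrt had 1123 per kb and B2m, which also pairs with all class I histocompatibility molecules, had 35783 per kb (value 30773), 31.9-fold more. The log2 ratio of Fcgrt to B2m was -4.99. Fcgrt was nonetheless well above its class I-like relatives, with Hfe at 236 per kb (value 843), Mr1 at 114 (value 684), Cd1d1 at 20.6 (value 53) and Azgp1 listed at 0. Of the recycling GTPases, Rab11a stood at 1086 per kb, Rab5a at 283 and Rab4a at 184, while the epithelial Rab25 had a value of 3. The FcRn cargo gene Alb was listed at 0.

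Of 12 genes encoding ligands, 8 immunoglobulin constant region genes had no row and were not analysed here. Ptx3, a pentraxin that can bind Fc gamma receptors, was the one detected ligand gene, at 208 per kb (value 558). Jchain was at 8, Crp at 2, and Apcs was listed at 0.

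The other Fc receptors and their relatives were mostly low. Of 14, 7 were detected, 4 (Fcer1a, Fcrl5, Fcmr and Fcamr) were listed at 0, and the median was 4.49 per kb. A pair stood apart. Pigr, which carries polymeric IgA and IgM across epithelia, had 7410 per kb (value 29825), above 99.5% of detected rows and 1.34-fold above Fcgr3. Fcrls, a scavenger-type relative known as a microglial gene, had 3802 per kb (value 8874). They were followed by the cytosolic antibody receptor Trim21 at 59.8 (value 222) and by Fcrlb at 36.6 (value 47).

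In position, 4 of the 6 genes lie together on chromosome 1. Fcgr2b (170958617 to 170976547, minus strand), Fcgr4 (171018920 to 171029761, plus strand), Fcgr3 (171051174 to 171064935, minus strand) and Fcer1g (171229572 to 171234365, minus strand) span 276 kb in GRCm38. Fcgr1 lies on chromosome 3 (96282909 to 96293969, minus strand) and Fcgrt on chromosome 7 (45092990 to 45103851, minus strand). Neighbours differed in level. Fcgr4 lies between Fcgr2b and Fcgr3 but had 403 per kb, against 1529 and 5523 for these neighbours. The Fc receptor-like genes beyond Fcgr2b were low, with Fcrla at a value of 2 and Fcrlb at 47. Next to Fcer1g, the liver gene Apoa2 had a value of 19.

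**Figure D4:**
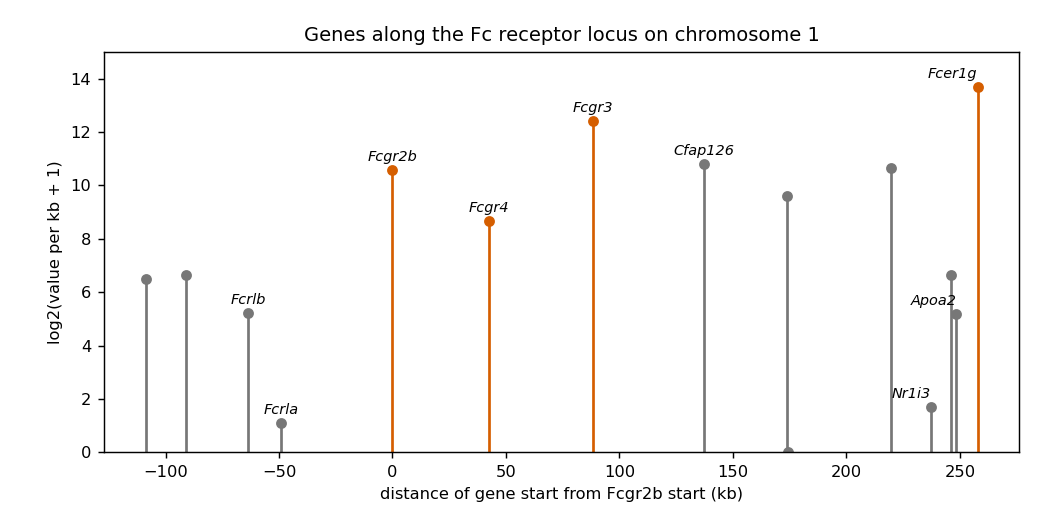
Level of genes with a row along the locus as far as Fcer1g, as log2(value per kb of annotated exons + 1), against the distance of its start from the start of Fcgr2b in kb. Orange marks Fcgr2b, Fcgr4, Fcgr3 and Fcer1g, grey the other genes. Genes of high and low level lie side by side, and Fcer1g is the highest of all those drawn.

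Myeloid genes are often driven by PU.1, encoded by Spi1, whose sites can contain the letters GAGGAA. On the opposite strand these letters are read as TTCCTC. RefSeq promoter windows (GRCm38.p6) matched all 6 genes by symbol, and the 250 bases before each start were searched on both strands. The letters occurred 1 time before each of Fcgr1, Fcgr3 and Fcgr4, and in 23.3% of 32851 promoter windows of the same length. They did not occur in the windows of Fcgr2b, Fcer1g and Fcgrt. The window of Fcgr2b lies inside the span of that gene given above, and the bases before its GENCODE start at 170976547 were not searched. Other forms of the site were not searched, so a window without these letters can still hold one. The stretches around the match are shown because all 3 belong to activating receptors, with the match in capitals.
Fcgr1: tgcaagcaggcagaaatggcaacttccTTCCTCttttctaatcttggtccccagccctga
Fcgr3: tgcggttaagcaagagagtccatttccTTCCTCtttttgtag
Fcgr4: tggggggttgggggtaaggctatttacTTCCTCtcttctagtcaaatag
These lie at chr3:96293992-96294051 (minus strand), chr1:171059395-171059436 (minus strand) and chr1:171018877-171018925 (plus strand), with the match beginning 55, 15 and 22 bases before the start. Fcgr3 has 2 starts in the RefSeq table, and the same match lies 6 bases before the other one. Both lie inside the span of Fcgr3 given above, and the bases before its GENCODE start at 171064935 were not searched. Genes with the match ran from 349 per kb (Fcgr1) to 5523 (Fcgr3), and genes without it from 1123 (Fcgrt) to 13217 (Fcer1g).

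Spi1 itself stood at 2426 per kb (value 6539), the highest of 7 myeloid transcription factors. Others were Cebpb at 1672 (value 2514), Cebpa at 1169 (value 3082), Irf8 at 598 (value 4222), Runx1 at 242 (value 2910) and Ikzf1 at 158 (value 911). All 7 were detected and 6 were in the highest 10% of rows.

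Markers of the cells that could carry Fc receptors were read in the same library. In a bulk culture, fewer cells of a type and less RNA per cell cannot be told apart. All 11 microglia markers were detected, with a median of 4720 per kb. They included C1qa at 31364, Cd68 at 21928 and C1qb at 17622, with Tmem119 lowest at 425. The labels say glia and the markers of microglia and of astrocytes were both present: all 7 astrocyte markers were detected, with a median of 559 per kb. The study describes its VM-glial cultures as mostly GFAP-positive astrocytes, with a minority of Iba1-positive microglia. The medians of these marker lists therefore do not give shares of cells. Gfap stood at 4083 per kb, Aldoc at 1779, Aqp4 at 810, Aldh1l1 at 559, S100b at 407, Slc1a3 at 217 and Slc1a2 at 142. Csf1r, the receptor microglia need to survive, stood at 5440 per kb of annotated exons (value 31413). Per kb, Csf1r was 0.985 of Fcgr3, but on undivided values it was 3.28-fold above it. Fcer1g was 2.43-fold Csf1r per kb but 0.368 of it undivided, so the direction turned with the scale. Csf1r was above Fcgr2b by 3.56-fold per kb of annotated exons and by 3.55-fold undivided, with the level of Fcgr2b resting on the length chosen. The 4 Fc gamma receptors together were 1.43-fold Csf1r per kb of annotated exons, but 0.632 of it on undivided values.

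Markers of other cell types ranged widely, with values from 0 to 16915. The 5 B cell markers were at 0 to 16, with Cd79b and Pax5 listed at 0, Cd79a at 9 and Ms4a1 at 16. The 5 mast cell markers were at 0 to 22, with 4 of them (Cpa3, Mcpt4, Tpsb2 and Cma1) listed at 0 and Kit at 22. Of the T and natural killer cell markers, Nkg7 was listed at 0, Cd3e was at 2, Ncr1 at 4, Klrb1c at 10 and Cd3d at 202. Neutrophil markers included Elane listed at 0, S100a9 at 2, Mpo at 11, S100a8 at 129 and Csf3r at 1131, and 1 of 6 had no row. Among dendritic cell markers Flt3 was at 4, Zbtb46 at 57, Xcr1 at 69 and Itgax, which microglia in culture also express, at 772. Border macrophage markers were mixed, with Ms4a7 at 7582, Mrc1 at 7012, Pf4 at 327, and Cd163 and Lyve1 at 21 each. The part of border macrophages in the Fc receptor levels was not tested. Endothelial markers ran from 0 (Tek) through 3 (Cldn5) and 33 (Pecam1) to 43 (Cdh5). Mesenchymal markers were all detected, from Lum at 455 through Pdgfrb at 1150, Dcn at 3165 and Col1a2 at 8468 to Col1a1 at 16915.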

How the data were processed

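RNA-seq was analysed in 1 library of control VM-glia. Per the study's methods, reads trimmed at a quality of 20 were mapped to GRCm38/mm10 with STAR, and HTSeq-count gave the reads on exons (RefSeq Release 105). The methods also mention FPKM, but the deposited values are whole numbers. The submitters' processing notes name TopHat and edgeR, with no role given. The deposited values were whole numbers that the authors call normalised read counts, and were treated as a score, since the normalisation is not given in the sources used here. The number of reads behind them is unknown, so no interval or floor is given.

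Values were divided by the union of annotated exons in GENCODE M21 (GRCm38), which matched 22913 rows (98.4%) by symbol or RefSeq synonym. This is not the annotation the authors counted on. Other lengths were the longest transcript, the longest coding sequence and, added after the data were seen, the exons and the shortest of RefSeq-paired transcripts. Rows at 10 or above count as detected. Log2 ratios used a pseudocount of 1. The members and lists were chosen with earlier results of these data known. In lists of up to 7 genes all were named, and in longer lists the 4 highest per kb, the lowest and those at 0. Vav2, Vav3, Plcg1, Syk, locus neighbours and markers outside this rule were named after their values were seen. Some genes this rule takes in are not reported here. With 1 library, likeness of pattern across samples could not be computed. Coding sequences were aligned locally. The helper functions for the percentile and the log2 ratio were tested on fixed numbers with known answers. Python 3.11.15, numpy 2.4.6, pandas 2.3.3 and matplotlib 3.10.9 were used.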

Additional observations from a re-analysis of the deposited data

How the results depend on the processing

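The 6 ratios and the detection of the members were recomputed under other settings, and a ratio was taken to have moved when it changed by more than 1.5-fold. It stayed within that range in 34 checks, moved in 10 and changed sign in 2. Some of the 34 could hardly have moved. A pseudocount of 0.1 is small beside the values, and minima of 1 and 3 cannot lose genes already at 10 or more. For activating receptors and for Fcgr3, each over Fcgr2b, the longest transcript and the exons of RefSeq-paired transcripts gave the same ratio. On undivided values, the log2 ratio was 0.31 for activating receptors over Fcgr2b, 0.11 for Fcgr3 over Fcgr2b, 0.071 for Fcer1g over the activating sum and -3.70 for Fcgrt over B2m, and the 4 receptors over Csf1r turned to -0.66. Per kb of coding sequence it was 0.63 for activating receptors and 0.46 for Fcgr3, each over Fcgr2b. With the shortest RefSeq-paired transcript, chosen after seeing the data, it was 0.38 and 0.23 for the same ratios, and 1.02 for the activating over the inhibitory cascade. Without Fcgr3, the activating sum over Fcgr2b turned to -1.02. With Aif1 in place of Csf1r, the 4 receptors stood at 1.71. These moves follow from the lengths and genes put into each ratio. All 6 members were detected at minima of 1, 3 and 100. Fcgrt stood above 85.7% of detected rows, but above 90.4% of all rows. The lack of a replicate limits each value to this library.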

Other observations

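Some chains that are usually made together, and some other genes set side by side here, differed in value in this library. Of the T cell receptor complex genes, Cd3d had a value of 202, while Cd3e and Cd3g had 2 each. Of the calprotectin pair, S100a8 had a value of 129 and S100a9 had 2. Csf3r, the receptor for granulocyte colony-stimulating factor, had a value of 1131, while the granule genes Mpo and Elane were at 11 and 0. Pigr had a value of 29825, while the IgM receptor Fcmr and the IgA and IgM receptor Fcamr were listed at 0, and Jchain, part of the ligand of Pigr, was at 8. These genes were singled out after their values were seen, and no cause was tested.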
